A study of Mus musculus with 3 samples.

Results

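The genes described here encode the urokinase system and several proteins of blood coagulation, measured in the mouse macrophage line RAW264.7 at 0, 2 and 12 h of exposure to lipopolysaccharide (LPS), a component of the outer membrane of Gram-negative bacteria. They are Plau, Plaur, Serpinb2, Procr, F3, F10 and Thbd, and every probe set that the platform annotation assigns to 1 of these genes was taken, which gave 10 probe sets for 7 genes out of 22626 non-control probe sets and 12393 named genes. Each time was represented by 1 array of bulk total RNA, in which fewer expressing cells and less RNA per cell cannot be told apart, and the design has no untreated array at the later times, so LPS and time in culture cannot be told apart in any difference from 0 h. The sources used here give neither the LPS dose nor the number of cultures behind an array.

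Urokinase, the product of Plau, is a serine protease that cuts plasminogen to plasmin, which dissolves fibrin and degrades matrix around migrating cells. Its receptor, encoded by Plaur, holds it at the cell surface, and plasminogen activator inhibitor type 2, the serpin encoded by Serpinb2, inhibits it. Coagulation starts when tissue factor (F3) binds factor VII and activates factor X (F10), which leads to thrombin. Thrombomodulin (Thbd) binds thrombin and turns it towards protein C, whose receptor is encoded by Procr, and activated protein C dampens coagulation. Macrophages are known to make several of these proteins and to change them on contact with bacterial products.

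The deposited values are linear probe set signals that had been scaled before deposit, with a 2% trimmed mean of 150.1 on each array. After a further rescaling that moved values by at most 0.16%, signals under the 40th percentile of all values, 35.0, were set to that floor and the values were then turned to log2. Where both signals of a comparison lay under the floor no fold is given, and where 1 of them did the fold is a bound, written "at least". With 1 array per time there is no replicate, no test and no p-value. The words higher and lower, where used as calls, mean floored signals at least 2-fold apart. The only spread the arrays hold is how far probe sets of the same gene differ. Their log2 differences varied around the mean of their gene with an SD of 0.32 where 2 h was compared with 0 h, 0.34 where 12 h was compared with 0 h and 0.31 between 12 h and 2 h. This SD leaves out any error that probe sets of an array share. The error between cultures was not measured. All 10 macrophage markers looked at, Cd68, Adgre1 and Csf1r among them, were above the floor on every array, with summed signals of 19619 at 0 h, 19523 at 2 h and 22094 at 12 h. Of 10 endothelial markers, 4 were above the floor on any array, namely Egfl7, Esam, Kdr and Robo4, and their list summed to 327, 272 and 293, while Pecam1, Cdh5, Tek, Tie1, Emcn and Vwf were under the floor throughout. Of 10 hepatocyte markers, 5 were above the floor on any array and none on all, with list sums of 275, 163 and 220, and of 10 fibroblast markers 2, Col1a2 and Fbln1, were above it on all arrays, with list sums of 262, 206 and 252.

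The promoters of the 3 genes that were at least 2-fold higher at some time are shown because short motifs in them can be set beside the order in which the genes moved. The sequences are the 250 bases before the annotated gene start, from RefSeq on build GRCm38.p6, 5' to 3' along the gene's strand. Of the 7 genes, 5 matched the promoter table, all but Plau and Thbd. Serpinb2 has 2 starts in that table, and the window of the upstream one is printed. Capitals mark matches on either strand to TGANTCA, the AP-1 form, to TGACGTCA, the cyclic AMP response element, to a loose NF-kB form (3 G, any 5 bases and 2 C), to TATAAA and to GGGCGG, the GC box. Some of these matches overlap.
Plaur (chr7:24462233-24462482, + strand): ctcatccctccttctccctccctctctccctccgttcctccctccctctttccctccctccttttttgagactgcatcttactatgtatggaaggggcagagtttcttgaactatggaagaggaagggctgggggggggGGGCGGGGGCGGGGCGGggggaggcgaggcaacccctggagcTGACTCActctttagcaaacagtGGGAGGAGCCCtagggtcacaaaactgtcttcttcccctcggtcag
Serpinb2 (chr1:107511173-107511422, + strand): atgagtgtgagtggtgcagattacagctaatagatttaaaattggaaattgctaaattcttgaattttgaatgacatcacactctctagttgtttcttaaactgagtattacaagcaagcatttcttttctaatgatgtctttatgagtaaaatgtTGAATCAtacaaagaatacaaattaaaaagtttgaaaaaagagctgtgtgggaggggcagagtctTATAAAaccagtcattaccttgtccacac
Procr (chr2:155750967-155751216, + strand): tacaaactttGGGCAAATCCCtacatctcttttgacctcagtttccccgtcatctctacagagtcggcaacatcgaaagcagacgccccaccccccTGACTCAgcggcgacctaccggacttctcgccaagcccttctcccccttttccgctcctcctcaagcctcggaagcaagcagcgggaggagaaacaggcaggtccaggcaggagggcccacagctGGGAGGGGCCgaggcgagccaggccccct

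The AP-1 form TGANTCA stood in the promoters of 4 of the 5 genes, namely Plaur, Serpinb2, Procr and F3, and in 6.75% of all 32851 promoter windows of the same length. It covered bases 69 to 63 before the start in Plaur, 94 to 88 before the upstream start in Serpinb2 and 154 to 148 in Procr, and F3 had 2 matches, at 146 to 140 and 135 to 129. The loose NF-kB form was found in Plaur, Procr, F3 and F10, but 45.8% of all windows hold it. TATAAA was found in Serpinb2, at 29 to 24 bases before the upstream start, and in 12.4% of all windows. Before the other Serpinb2 start this match lay at 116 to 111 and the AP-1 match at 181 to 175. The GC box was found in Plaur, as 3 copies in a row, and in F3, against 32.7% of all windows, and TGACGTCA in none of the 5 genes and 1.55% of windows. These are matches of letters and do not show binding. The 3 promoters printed share the AP-1 form, and the genes differed in the time at which their signal was high. Whether the motif bears on that time was not tested.

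The protease and its receptor moved in opposite directions, at different times. The receptor gene Plaur was about 4-fold higher by 2 h and stayed there, while Plau was at least 2-fold lower only at 12 h. The inhibitor gene Serpinb2 and the protein C receptor gene Procr were at least 2-fold higher at 12 h, while at 2 h Procr was within 2-fold of 0 h and Serpinb2 was still under the floor. Signals of F3 and Thbd were under the floor at every time, and F10 was above it on the 12 h array alone.

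Plaur was read by 1 probe set, 1452521_a_at, whose signal was 456 at 0 h, 1811 at 2 h and 1917 at 12 h. Both LPS arrays lay well above the 0 h array and close to each other. The signal was 3.97-fold higher at 2 h than at 0 h (log2 difference 1.99) and 4.20-fold higher at 12 h than at 0 h (2.07), with a difference of 0.08 between 12 h and 2 h. That last difference is inside the SD of 0.31 between probe sets of one gene, and its sign turned, to -0.016, with arrays scaled to one median. On its array Plaur stood at percentile 89.9 of all probe sets at 0 h, 98.1 at 2 h and 98.2 at 12 h. Its increase at 2 h ranked 47 from the highest of the 7510 genes whose signals both passed the floor.

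Plau was read by 2 probe sets. In 1422139_at, the brighter one over the 3 arrays, the signal was 357 at 0 h, 277 at 2 h and 40.4 at 12 h. In 1422138_at it was 231 at 0 h, 142 at 2 h and 67.0 at 12 h. In both the 12 h array was the lowest and the 2 h array lay between the others. At 2 h against 0 h the log2 differences were -0.37 and -0.70, so the first differed by about the SD between probe sets and neither reached 2-fold. At 12 h against 0 h the signal was 8.85-fold lower by the brighter probe set (log2 difference -3.15), the lowest of 7665 genes with both signals above the floor, and 3.45-fold lower by the other (-1.79). Between 12 h and 2 h the decreases were 6.86-fold and 2.12-fold (-2.78 and -1.08).

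The probe sets of Plau therefore gave the same direction and different sizes. Their gap was 1.36 on the log2 scale for 12 h against 0 h. A gap at least as wide was seen in 20, or 1.10%, of 1813 genes with exactly 2 probe sets passing the floor on these arrays. Plau is itself counted among the 20, and the median gap was 0.29. For 12 h against 2 h the gap of Plau was 1.69, reached by 5 of 1784 such genes, Plau included. For 2 h against 0 h it was 0.33, reached by 41.8% of 1780 genes. The 12 h signal of the brighter probe set, 40.4, lay just above the floor of 35.0, so its fold also depends on where the floor is set: raising it to the 60th percentile gave a log2 difference of -2.08.

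Serpinb2 was read by 1 probe set, 1419082_at, with a signal of 5.89 at 0 h, 15.9 at 2 h and 366 at 12 h. The 0 h and 2 h signals were both under the floor and only the 12 h array was clearly above it, at percentile 87.2 of its probe sets. The signal was at least 10.5-fold higher at 12 h than at 0 h, and the same bound holds against 2 h. Between 2 h and 0 h no fold is given, since both signals lay under the floor. Lowering the floor to the 20th percentile gave a log2 difference of at least 0.56 between them. The bound moves with the floor: the log2 difference against 0 h was 3.39 as reported, 5.08 with the floor at the 20th percentile and 2.11 with it at the 60th.

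**Figure D1:**
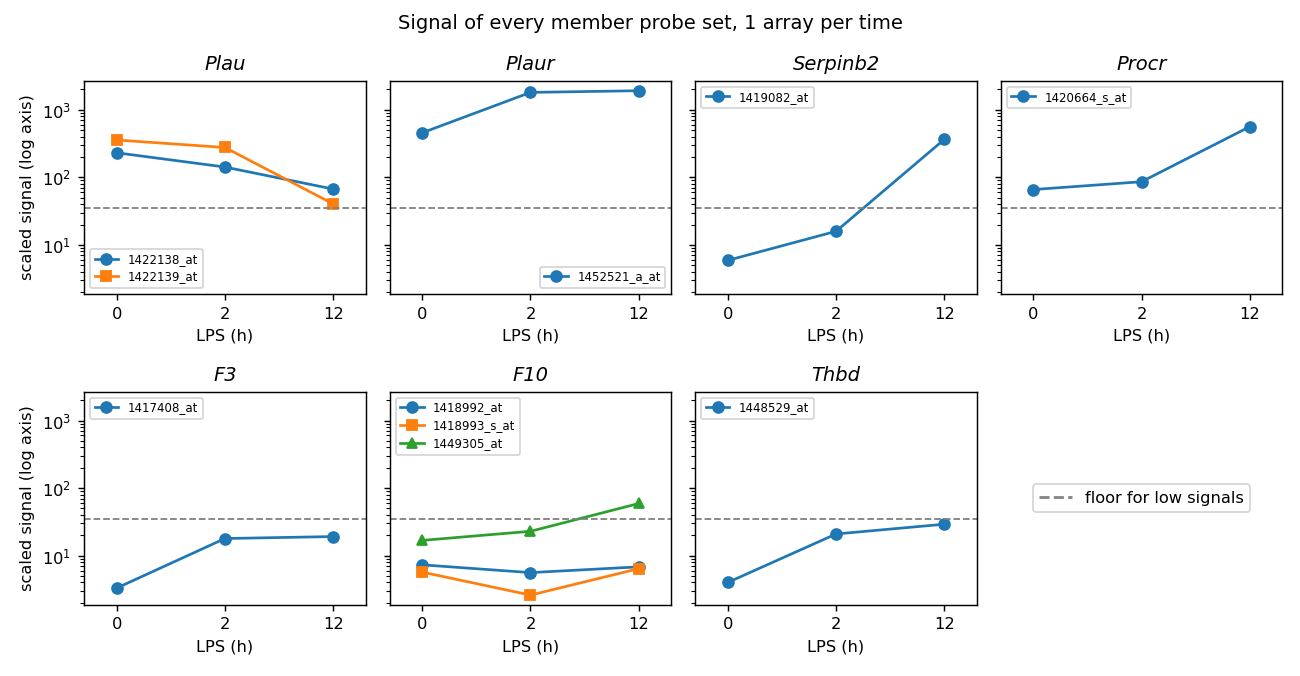
Scaled signal (log axis) of each of the 10 probe sets at 0, 2 and 12 h of LPS, with 1 panel per gene, 1 point per array and the floor of 35.0 as a dashed line. Plaur lies high at both LPS times, Plau is lowest at 12 h in both probe sets, Serpinb2 and Procr are high at 12 h, and F3, Thbd and 2 of the 3 F10 probe sets lie under the floor throughout.

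Procr was read by 1 probe set, 1420664_s_at, whose suffix marks probes that can match more than 1 transcript. Its signal was 65.9 at 0 h, 86.1 at 2 h and 564 at 12 h, all above the floor. The 0 h and 2 h arrays lay close together and the 12 h array far above them. The signal was 1.31-fold higher at 2 h than at 0 h (log2 difference 0.39, about the SD between probe sets), 8.56-fold higher at 12 h than at 0 h (3.10) and 6.55-fold higher at 12 h than at 2 h (2.71). The difference for 12 h against 0 h ranked 17 from the highest of 7665 genes, and the one for 12 h against 2 h ranked 5 of 7518.

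Of the coagulation initiators, F3 was read by 1417408_at with signals of 3.30 at 0 h, 17.9 at 2 h and 19.1 at 12 h, all under the floor. F10 had 3 probe sets. In 1449305_at the signal was 16.8 at 0 h, 22.9 at 2 h and 59.1 at 12 h, at least 1.69-fold higher at 12 h than at 0 h, a bound that does not settle whether it reached 2-fold. The other F10 probe sets, 1418992_at and 1418993_s_at, did not follow it: their signals were 7.29, 5.60 and 6.81 in the one and 5.69, 2.60 and 6.41 in the other at 0, 2 and 12 h. The median over the 3 floored probe sets lay at the floor at both 12 h and 0 h, a log2 difference of 0. Lowering the floor to the 20th percentile put all 3 signals of 1449305_at above it, with a log2 difference of 1.82 at 12 h against 0 h.

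Thbd, the thrombomodulin gene, was read by 1448529_at with signals of 4.0 at 0 h, 20.9 at 2 h and 29.1 at 12 h. The 0 h signal was the lowest and all 3 were under the floor. F3 and Thbd stood at percentiles 27.2 and 35.5 of the 12 h array and at percentiles 7.01 and 8.84 of the 0 h array. With the floor at the 20th percentile, a signal of 10.8, Thbd had a log2 difference of at least 1.43 at 12 h against 0 h and at least 0.95 at 2 h against 0 h, and F3 of at least 0.83 and 0.73. Whether these probe sets detect their genes at such signals was not tested.

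**Figure D2:**
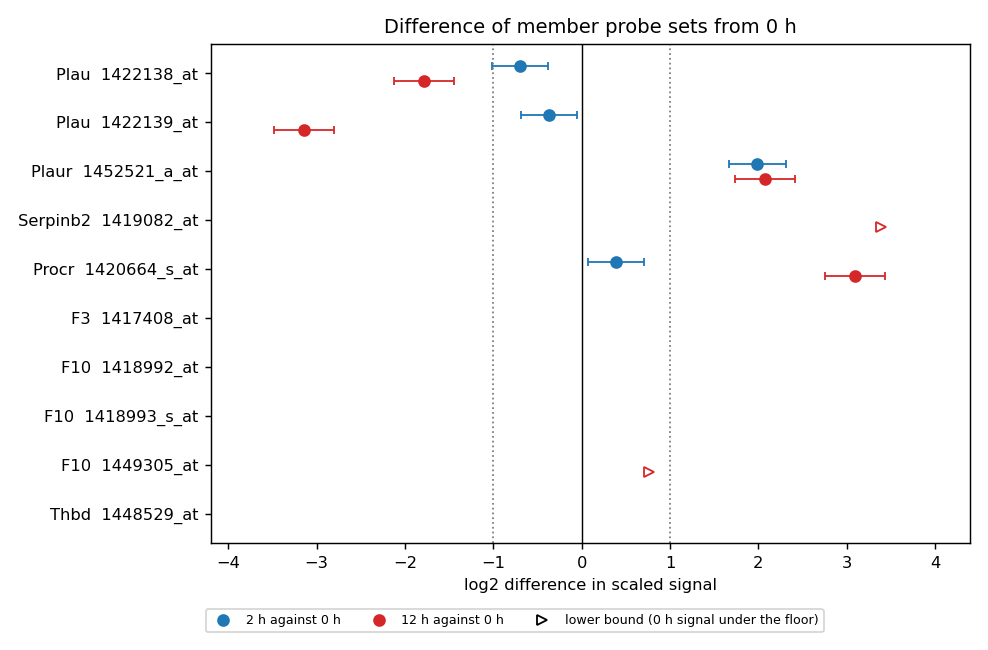
Log2 difference in scaled signal of each probe set for 2 h against 0 h and 12 h against 0 h. Bars are the SD between probe sets of one gene (0.32 and 0.34) and not an error between arrays or cultures. Open triangles are lower bounds, dotted lines mark 2-fold, and probe sets under the floor on both arrays have no point. The 2 h and 12 h points of Plaur overlap, whereas those of Procr and of both Plau probe sets are apart.

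Counted by gene, 1 of the 7, Plaur, was at least 2-fold higher at 2 h than at 0 h, where 2.09% of 8413 measured genes were, and 0 were at least 2-fold lower, where 1.68% were. A total of 4 of the 7 were under the floor on both arrays, while 8413 of all 12393 named genes were above it on at least 1 of them. At 12 h against 0 h, 3 of the 7 (Plaur, Serpinb2 and Procr) were at least 2-fold higher, where 3% of 8619 measured genes were, and 1 (Plau) was lower, where 2.39% were. Serpinb2 and F10 entered this comparison through their 12 h signal alone. At 12 h against 2 h, Serpinb2 and Procr were higher, where 2.65% of 8457 measured genes were, and Plau was lower, where 1.97% were. The split over all genes at 2 h depends on the scaling: it was 176 higher and 141 lower as reported and 224 and 72 with arrays scaled to one median, which put the median log2 difference of genes with both signals above the floor at 0.04, against -0.10 as reported. Plaur was at 2.13 in place of 1.99 under that scaling, and Plau at -0.23 in place of -0.37. Leaving out probe sets with a suffix takes Plaur and Procr out of these counts, since each has only a suffixed probe set. With the floor at the 20th percentile F10 and Thbd were at least 2-fold higher at 12 h against 0 h as well, which gave 5 higher and 1 lower, and F10 at 12 h against 2 h. At that floor 4.96% of 10943 measured genes were higher and 4.50% lower at 12 h against 0 h. At 12 h against 2 h 5.53% of 10867 were higher and 3.16% lower. The Thbd value against 0 h is a bound, since its 0 h signal lay under this floor too.

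The 12 h differences of the 4 genes kept their direction and stayed past 2-fold under each of the scalings, floors and probe set choices that gave a value. Plau ranged over -3.18 to -2.08, Plaur over 2.00 to 2.12, Procr over 2.61 to 3.16 and Serpinb2 over 2.11 to 5.08 on the log2 scale. Plaur thus moved least and Serpinb2, whose 0 h signal is under the floor, most.

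**Figure D3:**
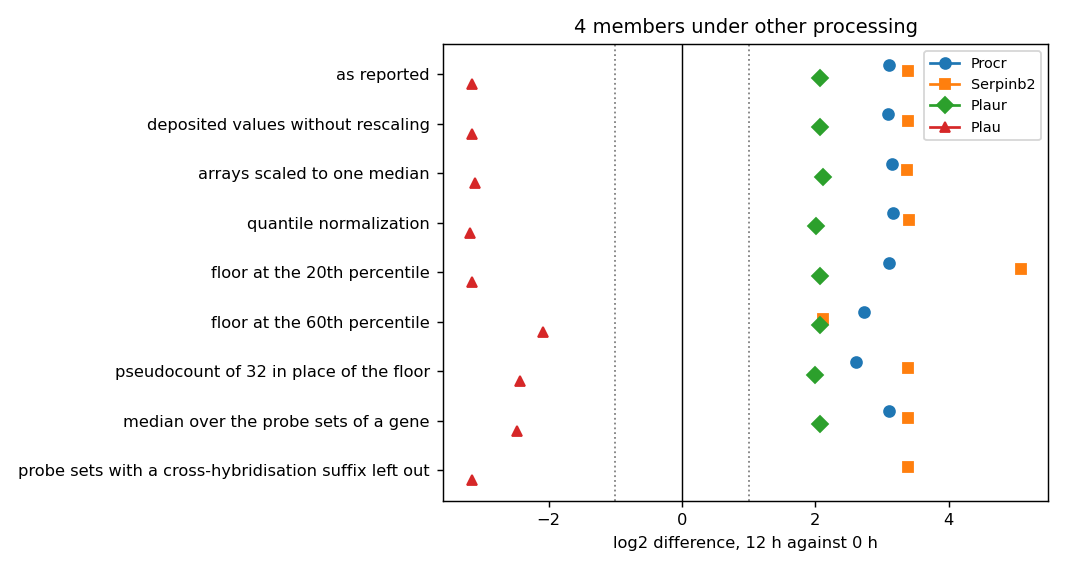
Log2 difference for 12 h against 0 h of Procr, Serpinb2, Plaur and Plau as reported and under 8 other ways of processing, with dotted lines at 2-fold. Serpinb2 is a lower bound wherever a floor was used, and a floor at the 60th percentile makes Plau and Procr bounds too. Without suffixed probe sets Plaur and Procr have no value, and Plau stays below -2 and the others near or above 2 in every setting.

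By the distance between pairs of log2 differences (2 h against 0 h and 12 h against 0 h), a description over 3 arrays that share the 0 h array, the genes most like Plau among 7323 above the floor on all arrays were the ribonuclease gene Rnase4 at a distance of 0.51, Ndrg2 at 1.13 and the mitotic cyclin gene Ccnb2 at 1.20. Rnase4 had signals of 387 at 0 h, 332 at 2 h and 61.2 at 12 h. Those most like Plaur were Rrp9 at 0.30, the RNA sensor gene Ifih1 at 0.32 and Osgin2 at 0.41. Ifih1 had signals of 141, 612 and 484. Procr was nearest to Ifi202b at 0.24, the chemokine gene Ccl7 at 0.36 and the gelatinase gene Mmp9 at 0.40. Ifi202b had signals of 185, 227 and 1352. Serpinb2, with values set to the floor, was nearest to Ccl7 at 0.27, the chemokine receptor gene Ccr1 at 0.29 and the nucleic acid sensor gene Zbp1 at 0.31 among 8719 genes above the floor on any array. For F10, which is a bound, Cd80, Thoc2l and Bst1 lay within 0.02. Plau entered these distances by its brighter probe set alone. Its other probe set, with log2 differences of -0.70 at 2 h and -1.79 at 12 h against 0 h, was not compared.

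The other genes of plasminogen activation were looked at through a list of 33, of which 27 had a probe set, 8 were under the floor on all arrays and 19 were measured in each comparison with 0 h. At 2 h 1 was at least 2-fold higher and 0 lower, where 2.09% and 1.68% of all measured genes were, with a median log2 difference of 0.0024, beside -0.10 over all measured genes. That gene was Itga5, the integrin alpha 5 subunit, with signals of 107 at 0 h, 645 at 2 h and 340 at 12 h, 6.03-fold higher at 2 h and 3.17-fold higher at 12 h than at 0 h. Its other probe set gave log2 differences of 1.59 and 1.02. At 12 h 5 of 19 were higher and 1 lower, where 3% and 2.39% of all measured genes were, with a median of 0.07, beside -0.05 over all measured genes. For comparison with the counts under the floor in this list and the lists below, 8719 of the 12393 named genes were above the floor on any array. The 7 genes are not counted in the 8719.

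The 12 h increases included both subunits of the integrin Mac-1, which is known to pair with the urokinase receptor on myeloid cells. Itgam had signals of 168, 187 and 380 at 0, 2 and 12 h and was 2.27-fold higher at 12 h than at 0 h. Itgb2 had 1268, 1565 and 2563 and was 2.02-fold higher, and was short of 2-fold with quantile normalization (log2 difference 0.87) and with a pseudocount (0.997). Fpr2, a formyl peptide receptor gene, had 47.1, 62.1 and 148 and was 3.14-fold higher, and Thbs1, the thrombospondin 1 gene, had 40.1, 23.9 and 125 and was 3.11-fold higher. Raising the floor to the 60th percentile left log2 differences of 0.80 for Fpr2 and 0.56 for Thbs1, both short of 2-fold. A second Thbs1 probe set had signals of 12.4, 23.1 and 174, with a log2 difference of at least 2.31 at 12 h against 0 h. Itgb5, an integrin beta subunit of a vitronectin receptor, was the one lower, with signals of 422, 374 and 166, 2.54-fold lower at 12 h than at 0 h and lower in all 4 of its probe sets.

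Other direct partners stayed within 2-fold. Anxa2, which encodes a plasminogen receptor subunit, had signals of 1281, 1659 and 2007 at 0, 2 and 12 h, a log2 difference of 0.65 at 12 h against 0 h, and its partner S100a10 had 2576, 2417 and 2403. Lrp1, the endocytic receptor that clears urokinase bound to inhibitors, had 710, 567 and 456, a difference of -0.64. Itgav, the vitronectin receptor alpha subunit, had 1387, 1779 and 911, a difference of -0.61. Plat, the tissue plasminogen activator gene, Plg, the plasminogen gene, Vtn and Itgb3 were under the floor on all arrays, and Serpine2 was not analysed here.

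In the coagulation and anticoagulant list, 43 of 49 genes had a probe set and 17 were under the floor on all arrays. Of 25 measured at 2 h, 1 was at least 2-fold higher and 0 were lower (median -0.14, beside -0.10 over all measured genes). Of 26 measured at 12 h, 0 were 2-fold apart (median 0.06, beside -0.05). Among all measured genes 2.09% were higher and 1.68% lower at 2 h, and 3% and 2.39% at 12 h. The gene higher at 2 h was Tgm2, tissue transglutaminase, with signals of 114, 299 and 119 at 0, 2 and 12 h, 2.62-fold higher at 2 h than at 0 h. By the median over its 6 probe sets its log2 difference was 0.83. F2, F5, F2r and Tfpi2 were under the floor throughout. F7, which pairs with tissue factor, had signals of 25.1, 32.4 and 45.9, F9 44.9, 51.6 and 42.5, Proc, the protein C gene, 35.8, 19.7 and 25.9, and Pros1, its cofactor protein S, 67.2, 51.9 and 47.2, all within 2-fold once floored. Tfpi, the tissue factor pathway inhibitor gene, had 51.1, 4.80 and 55.1, with a log2 difference of at most -0.55 at 2 h against 0 h, and F2rl1 was not analysed here.

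Of 62 other serpin genes, 29 had a probe set and 16 were under the floor on all arrays, and some stand in the lists above too. None of 13 measured was 2-fold apart at 2 h (median -0.17, beside -0.10 over all measured genes), and 3 of 13 were higher and 0 lower at 12 h (median -0.09, beside -0.05). Among all measured genes 2.09% were higher and 1.68% lower at 2 h against 0 h, and 3% and 2.39% at 12 h against 0 h. Serpinb9b had signals of 79.8, 73.0 and 260 at 0, 2 and 12 h and was 3.25-fold higher at 12 h than at 0 h. Serpinb9, which inhibits granzyme B, had 124, 149 and 314 and was 2.52-fold higher, and Serpinb6b had 56.6, 73.2 and 132 and was 2.33-fold higher. Serpinb6b fell short of 2-fold when the floor was raised to the 60th percentile (log2 difference 0.64) and with a pseudocount (0.89). The other measured Serpinb genes, Serpinb6a, Serpinb8 and Serpinb11, had log2 differences of 0.01, -0.12 and -0.10 at 12 h against 0 h.

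**Figure D4:**
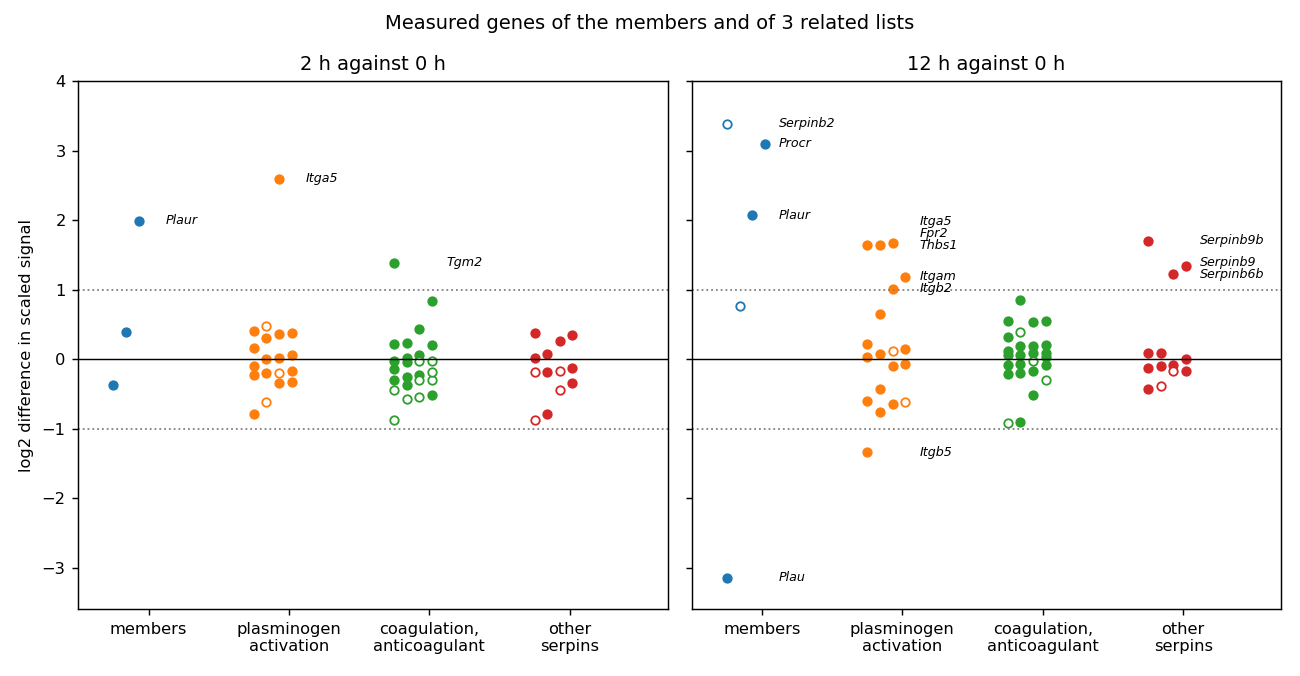
Log2 difference of the measured genes at 2 h and 12 h against 0 h, for the 7 genes and 3 related lists, with 1 point per gene, open points for genes under the floor on 1 of the arrays, and dotted lines at 2-fold. At 2 h Plaur, Itga5 and Tgm2 lie above 2-fold. At 12 h Plau is the lowest point and Serpinb2 and Procr are the highest.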

How the data were processed

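Total RNA of RAW264.7 cells at 0, 2 and 12 h of LPS was hybridised to 1-colour Affymetrix-type arrays, 1 per time, with targets made by a modified Affymetrix procedure per the labels' protocols. The values deposited by the authors are linear intensity, 1 per probe set. How they were scanned, summarised and scaled is not stated in the labels, but the equal trimmed means show that arrays had been scaled, so a change in total mRNA would not be seen.

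Of 22690 probe sets, 64 were controls and were set aside. In the platform annotation 20393 had 1 gene, 691 with several genes were left out, and 1606 have no entry. By gene identifier 20364 matched a RefSeq table (GRCm38.p6), used for names and to match list genes by synonym. The list of other serpins was also drawn from it, as the protein-coding genes named Serpin other than Serpinb2. Arrays were rescaled to one 2% trimmed mean, floored at the 40th percentile and taken to log2, and a gene was read by its probe set of highest mean log2 signal. Alternatives were the deposited scaling, median scaling, quantile normalization, a floor at the 20th or the 60th percentile, a pseudocount of 32, the median over probe sets, no suffixed probe sets, and folds of 1.5 and 3. The number of arrays limits the precision.

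The genes and lists were chosen with earlier results of these data known. Genes named from a list are those at least 2-fold apart at 2 or 12 h and the direct partners of urokinase, tissue factor and protein C, and the 3 nearest genes were named for each gene above the floor on any array. Serpinb6a, Serpinb8 and Serpinb11 were added with their values known. The counting was tested on simulated data for 12 h against 0 h: the share called was 100% for a 4-fold increase, 40.2% for a 2-fold increase, 76.2% for a 4-fold decrease and 0.014% for unchanged genes. The simulated 12 h array was the 0 h array with random noise, chosen smaller than the SD between probe sets. It held no error between cultures, so these shares check the counting and are not error rates of the real arrays. Python 3.11.15, numpy 2.4.6, pandas 2.3.3 and scipy 1.17.1 were used.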

Additional observations from a re-analysis of the deposited data

How the results depend on the processing

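No alternative reversed a called value. Leaving out suffixed probe sets gave 0 of the 7 genes at least 2-fold apart at 2 h against 0 h, in place of 1, and 2 at 12 h against 0 h, in place of 4, because Plaur and Procr then have no probe set. A floor at the 20th percentile gave 6 at 12 h against 0 h (5 higher and 1 lower), with F10 and Thbd added, and a fold of 1.5 gave 5, with F10 added; the other alternatives left both counts as reported. Of 96 values of single genes of the 7 under alternatives, 77 moved by less than the SD between probe sets and 19 by more. Counts in the lists are small and moved with the floor and the fold, as did the shares of all measured genes. With the floor at the 20th percentile these shares were 3.23% higher and 4.70% lower at 2 h, and 4.96% and 4.50% at 12 h. With a fold of 1.5 they were 5.59% and 9.63% at 2 h, and 8.27% and 10.3% at 12 h. With a fold of 3 they were 1.03% and 0.15% at 2 h, and 1.16% and 0.31% at 12 h. With a floor at the 20th percentile, genes apart numbered 3 at 2 h (2 higher, 1 lower) and 10 at 12 h (7 and 3) for plasminogen activation, 1 and 6 as reported, 3 (1 and 2) and 2 (0 and 2) for coagulation, 1 and 0 as reported, and 3 at 2 h (0 and 3) for other serpins, 0 as reported. With a fold of 1.5 plasminogen activation had 3 at 2 h (1 higher, 2 lower) and 11 at 12 h (6 and 5, against 5 and 1 as reported), coagulation 3 (2 and 1) and 3 (1 and 2), and other serpins 2 at 2 h (0 and 2). With a fold of 3 they were 3 at 12 h for plasminogen activation, 0 at 2 h for coagulation and 1 at 12 h for other serpins (3 as reported). Coagulation at 2 h had 0 with the median over probe sets and without suffixed probe sets, and 2 with a pseudocount. The other serpins' medians were 0.26 at 2 h and 0.64 at 12 h when the floor was raised to the 60th percentile. No paired analysis was possible because each time has 1 array.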
